A study of Homo sapiens with 4 samples.

Results

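The 9 genes described here encode enzymes that build nucleotides or carry the folate-bound carbon units these pathways consume: IMPDH2, CAD, GART, ATIC, PAICS, SHMT2, MTHFD1, RRM1 and CTPS1. They were chosen by name for this shared function, with earlier results of these data known, and the rule for their peaks uses no measured value. They are 9 of the 20428 gene identifiers with a sense peak, and a sense peak is one whose main region was neither antisense nor intergenic. Their sense peaks numbered 59 of the 145715 listed peaks in replicate 1 and 79 of 137934 in replicate 2, a mean of 69 ± 14.1 (SD, n = 2).

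The peaks come from Jurkat, a human T-cell acute lymphoblastic leukemia (T-ALL) cell line, grown without any named treatment or genetic change. In iRIP-seq, RNA is crosslinked to protein with UV light, recovered with an antibody, here against IGF2BP2, and sequenced. The series has 2 IGF2BP2 iRIP samples and 2 input samples of the same line. Only the peak lists of the iRIP samples were used, and the inputs were not analysed here. The study calls the iRIP experiments replicate and independent without saying whether they came from separate cultures.

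IGF2BP2 is an RNA-binding protein that recognises m6A-modified mRNAs and is known to affect their stability and translation. Purine synthesis assembles the ring of AMP and GMP step by step, and pyrimidine synthesis first makes UMP, from which CTP is derived. Both draw on amino acids, and purine and thymidylate synthesis also need folate-bound carbon units from serine. Ribonucleotide reductase turns the ribonucleotides into the deoxynucleotides of DNA, and dividing lymphoid cells depend on this supply, which antimetabolite drugs used in leukemia block.

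The lists give each peak a position on GRCh38, a strand, a height in tags (overlapping reads) and a p value. They also give the shares of its length in each gene region and a gene identifier. On the genes described here, heights that were not whole numbers occurred only on peaks longer than the shortest span of 50 nt. For longer peaks the listed height and p value thus read as averages along the peak, which can understate its highest point. Medians, height ratios and the p-value filter mix these averages with the values of the shortest peaks. Replicate 1 listed no peak under 4 tags and replicate 2 none under 5, heights that 74.3% and 62.6% of all peaks had. Total reads per library are unknown, so heights and numbers of peaks were not adjusted for depth, and with 1 condition and no input values they say nothing of binding per molecule of RNA. Wilson intervals given below are at the 95% level and cover counting error only.

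All 9 genes had a sense peak in both replicates, against 49.0% of 17036 protein-coding genes that could be assessed. A peak mainly in coding sequence (CDS) was present in both replicates in 7 of the 9, against 19.5% of protein-coding genes, and the exceptions were PAICS and RRM1. A pair of peaks, one from each replicate, that overlapped by at least 1 bp on the same strand was found in 5 of the 9: IMPDH2, CAD, SHMT2, MTHFD1 and CTPS1. Such a pair was found in 17.2% of protein-coding genes and in 35.0% of the 8344 genes with a sense peak in both replicates. Only IMPDH2, 1 of the 9, had a pair that reached 10 tags in both lists, against 3.30% of protein-coding genes and 6.74% of those with a sense peak in both replicates. These background shares include genes that Jurkat cells may not express, and the part of RNA abundance in the counts was not tested. The 9 were chosen with earlier results of these data known, so the counts beside the background are a description, not a test.

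**Figure D1:**
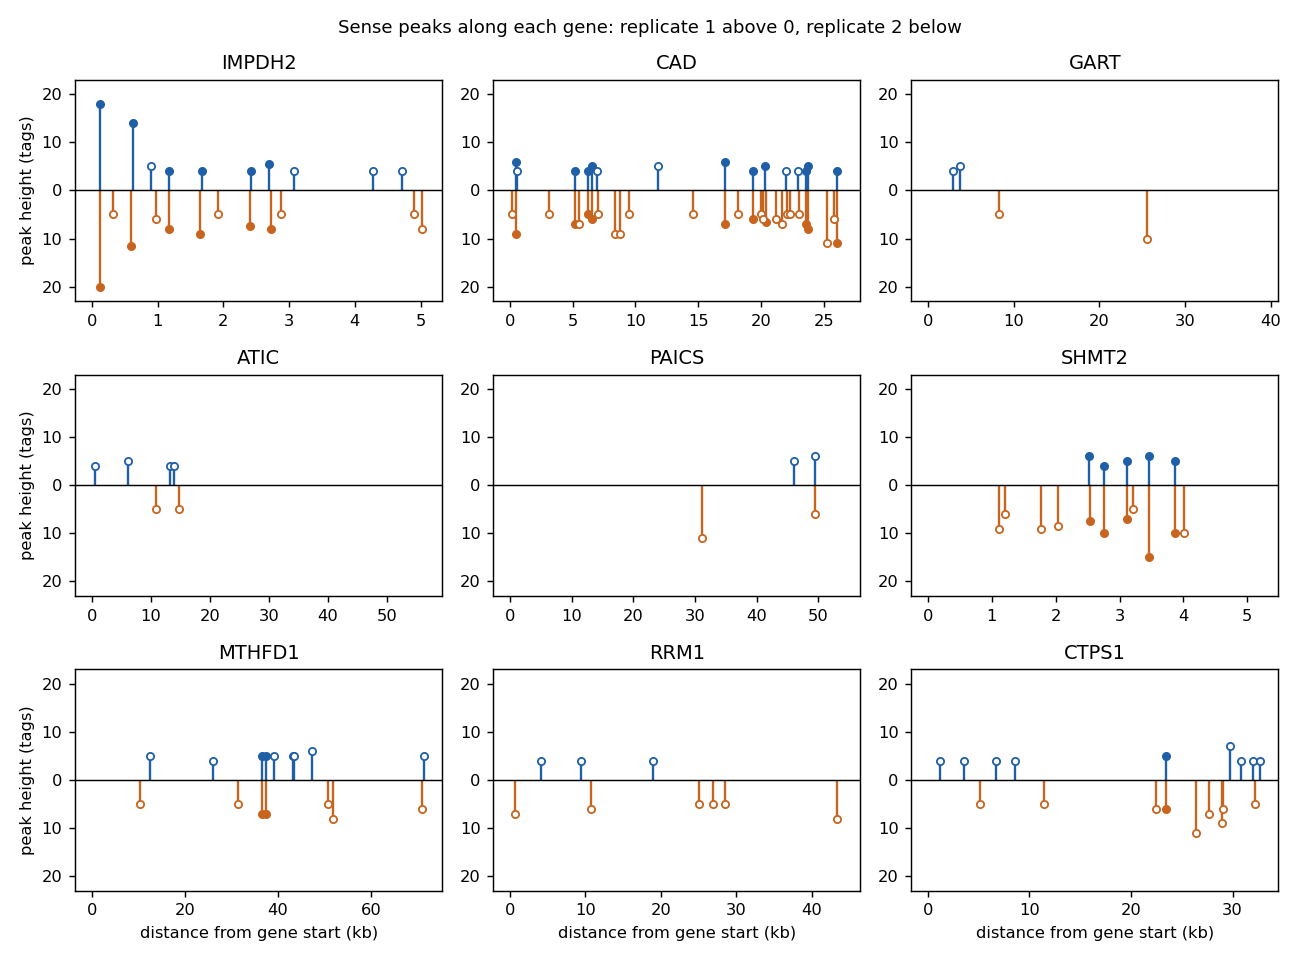
Height in tags of every sense peak (vertical axis, replicate 1 above 0 and replicate 2 below) against the distance of its midpoint from the start of the gene in kb (horizontal axis, different for each gene). Filled circles mark peaks that overlap one in the other list, and open circles mark the rest. IMPDH2 holds the highest peaks, 18 and 20 tags near its start, and GART, ATIC, PAICS and RRM1 have open circles only.

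IMPDH2 encodes the inosine monophosphate dehydrogenase that commits purines to guanine nucleotides and is the target of mycophenolic acid. Its gene (ENSG00000178035.13) is 5.07 kb long and lies on chromosome 3, minus strand. It had 10 sense peaks in replicate 1 and 12 in replicate 2. Heights ran from 4 to 18 tags in replicate 1 and from 5 to 20 tags in replicate 2, with medians of 4 and 7.75 tags. The highest peak was the same in both lists, chr3:49029250-49029300, with 18 and 20 tags, a mean of 19 ± 1.41 (SD, n = 2). It lay 0.123 kb from the start of the gene, and 96.0% of its length was CDS.

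Among the 2923 genes with an overlapping pair, only 89, or 3.04%, had a pair whose lower height reached the 18 tags of this IMPDH2 pair. The next pair of IMPDH2, at chr3:49028750-49028800 in replicate 1, had 14 tags there and 11.5 tags in replicate 2. By listed height it was the only pair of the 9 genes that was higher in replicate 1. Its peak in replicate 2, chr3:49028750-49028850, was longer than that of replicate 1, so these heights are not fully alike. In all, 6 of the IMPDH2 peaks of each replicate were overlapped by the other. All 10 peaks of replicate 1 were mainly CDS, against 7 of 12 in replicate 2, where 4 lay mainly in noncoding exons and 1 in the 3′ UTR. That 3′ UTR peak, chr3:49024350-49024400, had 8 tags and no counterpart in replicate 1.

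PAICS, GART and ATIC encode bifunctional or multifunctional enzymes of the shared route to IMP, the precursor of both purine nucleotides. They had few peaks, of at most 6 tags in replicate 1 and at most 11 in replicate 2, and none of them overlapped between replicates. GART (ENSG00000159131.17, chromosome 21, minus strand) had 2 sense peaks in each replicate. In replicate 1 these had 5 tags (chr21:33539150-33539200, 60.0% CDS) and 4 tags in an intron. In replicate 2 the higher one had 10 tags (chr21:33517350-33517400, 88.0% CDS), more than 20 kb away from those of replicate 1, and the other had 5 tags.

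ATIC (ENSG00000138363.15, chromosome 2, plus strand) had 4 sense peaks in replicate 1 and 2 in replicate 2, with heights of 4 to 5 tags and of 5 tags. Its highest peak in replicate 1 was chr2:215318150-215318200, with 88.0% CDS and 12.0% 5′ UTR. Every ATIC peak lay in the first 26.1% of the interval of the gene, whose end overlaps FN1 by 7728 bp in the RefSeq table.

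PAICS (ENSG00000128050.9, chromosome 4, plus strand) also had 2 sense peaks in each replicate. A CDS peak of 11 tags in replicate 2 (chr4:56441650-56441700) had no counterpart in replicate 1. In the 3′ UTR, a peak of 6 tags at chr4:56459900-56459950 in replicate 1 was directly followed by a peak of 6 tags at chr4:56459950-56460000 in replicate 2. With intervals read as half-open, these neighbours touch without overlapping, and they are the only sign of a shared position in PAICS. If touching peaks are counted, 6 of the 9 genes had a pair.

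CAD encodes the large enzyme that carries out the opening steps of pyrimidine synthesis. Its gene (ENSG00000084774.14, chromosome 2, plus strand, 26.6 kb) had the most sense peaks of the 9, with 15 in replicate 1 and 28 in replicate 2, a mean of 21.5 ± 9.19 (SD, n = 2). The peaks were low, with heights of 4 to 6 tags in replicate 1 and 5 to 11 tags in replicate 2. They ran along the whole gene, from 0.587% to 98.0% of its length in replicate 2.

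In each replicate 10 of the CAD peaks were overlapped by the other, the most pairs of any of the 9 genes. The pairs with the highest lower height were chr2:27217850-27217900, with 6 and 9 tags, and chr2:27234500-27234550, with 6 and 7 tags. The highest peaks of replicate 2 were close to the 3′ end. One of them, chr2:27243400-27243450, had 11 tags against 4 tags in replicate 1, and the other, chr2:27242600-27242650, had 11 tags and no counterpart. Some CDS was present in 14 of 15 and 26 of 28 CAD peaks, and 13 and 23 of them held both CDS and intron, that is, they crossed the edge of an exon.

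CTPS1 encodes the CTP synthase on which proliferating lymphocytes depend. Its gene (ENSG00000171793.16, chromosome 1, plus strand, 32.9 kb) had 9 sense peaks in each replicate, but 1 pair only, at chr1:41003100-41003150, with 5 and 6 tags. The regions differed between the lists. In replicate 1 a single peak was mainly CDS, 3 of 9 held any CDS, and 3 lay in the 3′ UTR with 4 tags each. In replicate 2, 6 peaks were mainly CDS and 8 of 9 held some CDS, among them the highest, chr1:41006050-41006100, with 11 tags and no counterpart. The highest of replicate 1, chr1:41009400-41009450, had 7 tags and 12.0% CDS, and also had no counterpart.

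A RefSeq table of windows around gene starts (GRCh38.p14) holds 12 windows for 7 of the 9 genes. A sense peak reached into 1 of them, the window of a downstream start of CTPS1. It is shown because it is the only stretch of these peaks for which sequence was at hand. The peak, chr1:40988250-40988300, was an intron peak of 4 tags, the lowest listed height, in replicate 1 only. The window spans chr1:40988269-40988568, and the peak reaches only its upstream edge. In the other CTPS1 window, chr1:40979446-40979745, the gene start at 40979696 lies nearer the downstream edge. The stretch below is thus read as upstream of the start, and its label names the window. The part of the peak inside the window, chr1:40988269-40988300 on the plus strand, reads as follows, with the longest run of T in capitals.
CTPS1 downstream start: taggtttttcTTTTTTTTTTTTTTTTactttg
Of these 32 bases 25 are T, and 16 of them are consecutive.

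SHMT2 encodes the mitochondrial serine hydroxymethyltransferase, which splits serine into glycine and a folate-bound carbon unit. Its gene (ENSG00000182199.11, chromosome 12, plus strand, 5.22 kb) had 5 sense peaks in replicate 1 and 11 in replicate 2. Every peak of replicate 1 had an overlapping partner in replicate 2. Their heights were 4 to 6 tags in replicate 1 and 7 to 15 tags in replicate 2. The highest, chr12:57233150-57233200, had 6 and 15 tags, with 42.0% CDS and 58.0% noncoding exon. These pairs lay between 2.51 and 3.86 kb from the start. Upstream of them replicate 2 had 4 further peaks with listed heights of 6 to 9 tags, where replicate 1 listed none.

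MTHFD1 encodes the cytosolic enzyme that interconverts folate-bound carbon units for purine and thymidylate synthesis. Its gene (ENSG00000100714.17, chromosome 14, plus strand) is the longest of the 9, at 71.7 kb, and had 9 and 7 sense peaks. Heights were 4 to 6 tags in replicate 1 and 5 to 8 tags in replicate 2. There were 2 pairs, chr14:64424800-64424850 and chr14:64425700-64425750, each with 5 and 7 tags and 94.0% and 42.0% of their length in CDS. The highest peaks, with 6 tags at chr14:64435550-64435600 in replicate 1 and 8 tags at chr14:64440100-64440150 in replicate 2, did not overlap each other.

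RRM1 encodes the large subunit of ribonucleotide reductase. Its gene (ENSG00000167325.15, chromosome 11, plus strand, 44.2 kb) had 3 sense peaks in replicate 1, all wholly in introns and all at the lowest height of 4 tags. Replicate 2 had 6, with heights of 5 to 8 tags, of which 3 held some CDS. The highest, chr11:4138050-4138100 with 8 tags, was an intron peak. No RRM1 peak was overlapped by the other replicate, and RRM1 was the only gene of the 9 without a peak of at least 5 tags in replicate 1.

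Numbers of peaks were compared between genes per length of the RefSeq gene interval, introns included. IMPDH2 had 21.7 sense peaks per 10 kb on average (19.7 in replicate 1 and 23.7 in replicate 2), SHMT2 15.3 (9.57 and 21.1) and CAD 8.09 (5.64 and 10.5). The replicates of IMPDH2 and SHMT2 overlap in range, as do those of SHMT2 and CAD. CTPS1 followed with 2.74 in both replicates, below the range of CAD. MTHFD1 (1.12, from 0.977 to 1.26) lay within the range of RRM1 (1.02, from 0.678 to 1.36), which also overlapped that of ATIC. The range of ATIC (mean 0.531, from 0.354 to 0.708) took in the values of GART (0.513 in both replicates) and PAICS (0.370 in both). With 2 replicates these differences were not tested.

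Among the 8344 genes with a sense peak in both replicates the median was 0.653 peaks per 10 kb and 4 peaks per gene, and 6 of the 9 genes lay above each of these medians. Of these genes 76 had more peaks per 10 kb than IMPDH2, 167 had more than SHMT2 and 474 had more than CAD. By number of peaks per gene, 1147 had more than IMPDH2, 1799 more than SHMT2 and 380 more than CAD. The intervals of IMPDH2 and SHMT2 are short, 5.07 and 5.22 kb, where the median of these genes was 54.1 kb. The part of gene length in these ranks was not tested. PAICS was the lowest of the 9 in peaks per 10 kb, at percentile 32.7. Its interval of 54.1 kb overlaps that of the neighbouring gene PPAT by 25109 bp.

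**Figure D2:**
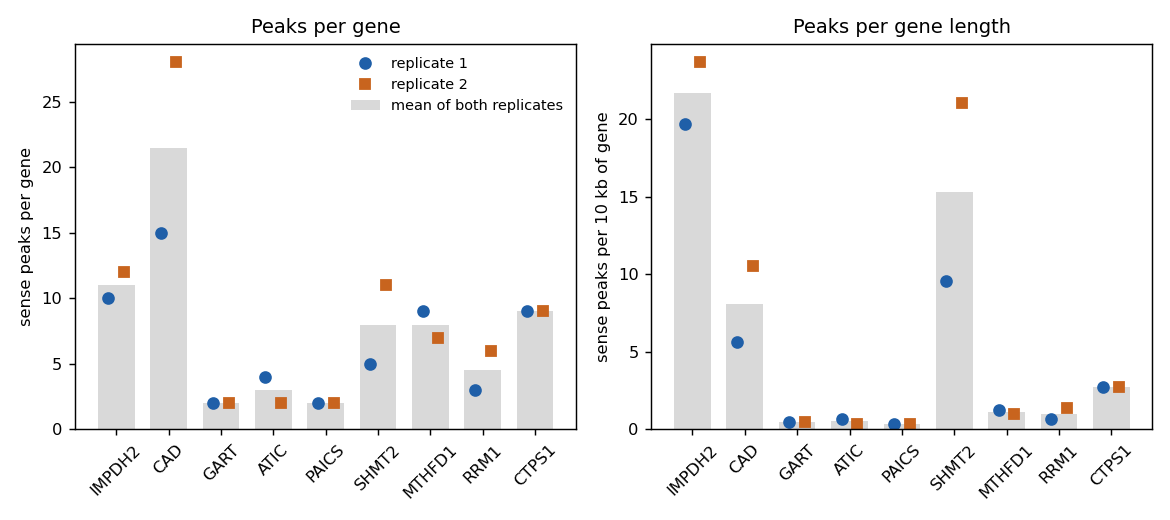
Sense peaks per gene (left) and per 10 kb of the RefSeq gene interval (right) for the 9 genes, with replicate 1 as circles, replicate 2 as squares and their mean as bars. CAD leads per gene with 15 and 28 peaks, and IMPDH2 and SHMT2 lead per length with means of 21.7 and 15.3 peaks per 10 kb.

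Over the 9 genes, 31 of 59 peaks (52.5%, Wilson interval 40.0% to 64.7%) lay mainly in CDS in replicate 1 and 42 of 79 (53.2%, 42.3% to 63.8%) in replicate 2. The difference of 0.622 percentage points lay within counting error, with p = 1 in Fisher's exact test (two-sided). The test sets 1 library against the other rather than conditions. It takes all peaks as independent, although 24 pairs overlap between the lists and CAD alone holds 15 and 28 of the peaks. Its p value thus does not measure variation between the libraries. Over all named protein-coding genes the CDS share of sense peaks was 25.4% in replicate 1 and 31.0% in replicate 2. Introns were the main region of 33.9% and 31.6% of the peaks on the 9 genes, against 63.5% and 57.0% over all named genes. A 5′ UTR was the main region of 1 peak in each replicate. A 3′ UTR was the main region of 4 and 3 peaks, 6.78% and 3.80%, near the 4.46% and 4.67% over all named genes.

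Looked at after the values were seen, the 3 genes with the most peaks per length, IMPDH2, CAD and SHMT2, held much of the CDS share. Over the other 6 genes, 7 of 29 peaks (24.1%) in replicate 1 and 13 of 28 (46.4%) in replicate 2 were mainly CDS. Over all named genes the CDS share was 61.2% and 62.5% among peaks of at least 10 tags, against 25.4% and 31.0% among all peaks. The part of height in the CDS share of the 9 genes was not tested. On the 9 genes 2 peaks in replicate 1, both in IMPDH2, and 11 in replicate 2 had a listed height of at least 10 tags. Of them 2 and 9 were mainly CDS. They are 3.39% and 13.9% of the peaks, near the 3.31% and 10.2% over all named genes. Longer peaks with a lower listed height may reach 10 tags at some point and are not counted.

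Peaks wholly in coding sequence numbered 5 of 59 and 7 of 79, 8.47% and 8.86%, near the 10.0% and 11.0% over all named genes. Both CDS and intron were present in 44.1% (32.2% to 56.7%) and 54.4% (43.5% to 65.0%) of the peaks on the 9 genes, against 19.7% and 25.5% over all named genes. CDS with a noncoding exon and no intron was present in 20.3% and 17.7%, against 3.80% and 4.73%. These last peaks were mostly on IMPDH2 and SHMT2. Peaks with any noncoding exon, a wider class that also takes in peaks without CDS or with intron, were 8 of 10 and 10 of 12 on IMPDH2. On SHMT2 they were 3 of 5 and 7 of 11. Peaks wholly in introns made up 15.3% and 8.86%, against 55.7% and 47.2% over all named genes. All peak starts lie on a grid of 50 nt, and whether single reads cross an exon edge cannot be told from the lists.

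Of the peaks on the 9 genes, 24 of 59 in replicate 1 (40.7%, 29.1% to 53.4%) and 24 of 79 in replicate 2 (30.4%, 21.3% to 41.2%) had an overlapping partner in the other list. Over all named protein-coding genes these shares were 20.4% and 18.5%. IMPDH2, CAD and SHMT2 held 21 of the 24 pairs. Over the other 6 genes 3 of 29 and 3 of 28 peaks were overlapped, 10.3% and 10.7%, shares of genes set apart after their values were seen. Among peaks with some CDS, 24 of 45 and 24 of 66 were overlapped (53.3% and 36.4%), close to the 47.0% and 34.7% over all named genes. Of the 14 and 13 peaks without any CDS none was overlapped, where the upper Wilson limits were 21.5% and 22.8% and the shares over all named genes 6.09% and 6.18%. The touching 3′ UTR peaks of PAICS, which hold no CDS, are not counted as overlapped here.

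In 23 of the 24 pairs the listed height was greater in replicate 2, with a median ratio of replicate 2 to replicate 1 of 1.48. In the exception, on IMPDH2, the peak of replicate 2 was the longer one. Over the 11424 pairs on all named genes the median ratio was 1.42, and 78.0% of the pairs were higher in replicate 2. Outside IMPDH2 the lower height of a pair was at most 6 tags. The antisense strand of the 9 genes held 3 peaks in replicate 1 and 10 in replicate 2, with at most 6 tags in either, and none of them was overlapped by the other replicate. With so few antisense peaks the upper Wilson limits were 56.1% and 27.8%.

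**Figure D3:**
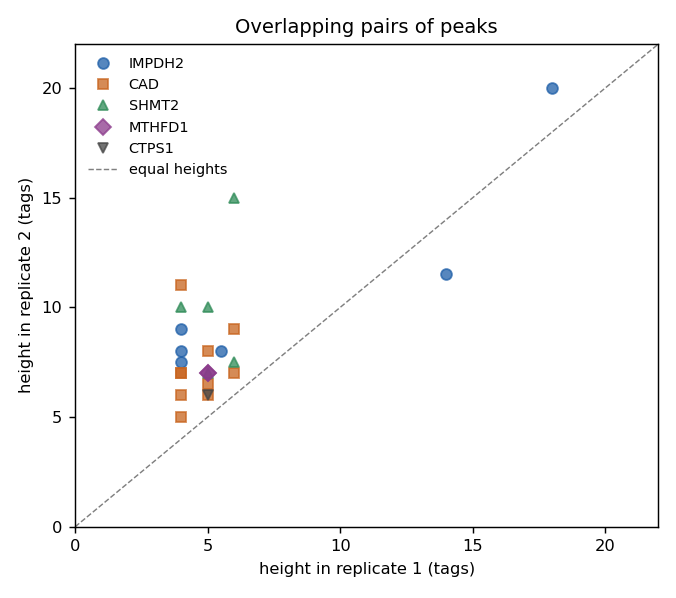
Height in replicate 2 against height in replicate 1, both in tags, for the 24 overlapping pairs of peaks on 5 of the genes, some of which lie on top of each other. The dashed line marks equal heights. All pairs but 1 lie above it, and 2 IMPDH2 pairs, with 18 and 20 tags and with 14 and 11.5 tags, stand apart from the rest. The 11.5 tags are the listed height of a peak longer than its partner.

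The same pathways were also read through 41 other genes of purine synthesis and salvage, pyrimidine synthesis, deoxynucleotide supply and the folate cycle. In 37 of them peaks could be assigned by position, and the rest were left out. Of these 37, a sense peak was present in both replicates in 28 (75.7%), against 49.0% of protein-coding genes. It was present in replicate 1 only in 7 and in neither in PRPS1 and TK1. By group, both replicates had a peak in 7 of 8 purine synthesis genes, 4 of 6 purine salvage genes, 4 of 5 pyrimidine synthesis genes, 6 of 9 genes of deoxynucleotide supply and 7 of 9 folate genes. An overlapping pair was present in 13 of the 37 genes (35.1%), against 17.2% of protein-coding genes and 5 of the 9. All 13 are among the 28 with a peak in both replicates, and over all such genes the share with a pair was 35.0%.

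In 4 of these genes, PFAS, ADA, RRM2 and TYMS, a pair reached 10 tags in both lists. This held for 3.30% of protein-coding genes and 6.74% of those with a sense peak in both replicates. ADA encodes the adenosine deaminase whose loss causes immunodeficiency through failing lymphocytes. It had 29 and 46 sense peaks, and its highest pair, chr20:44651550-44651600 at 52.0% CDS, had 25 and 66 tags, above any peak of the 9 genes. TYMS, the thymidylate synthase, had 11 and 15 peaks, with 13 and 17 tags in the pair whose lower height was greatest. PFAS, another enzyme of the route to IMP, had 8 and 16 peaks, with 10 and 11 tags at chr17:8255500-8255550, a pair with 98.0% CDS. RRM2, the small subunit that partners RRM1, had 40 and 52 peaks, of which 36 and 43 were mainly intron and 2 in each replicate mainly CDS. Its highest pair, at chr2:10122950-10123000, had 12 and 27 tags.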

How the data were processed

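The processed data are 1 peak list for each of the 2 IGF2BP2 iRIP samples. Per the labels and methods, the authors aligned paired reads to GRCh38 with TopHat2, kept uniquely mapped reads, called peaks in each library by the ABLIRC strategy and removed peaks overlapping input peaks, so a member peak can be missing for that reason. The annotation is not given in the sources used here. The deposited signal is the peak height in tags (98.6% and 97.2% whole numbers), which for longer peaks reads as an average along the peak. The authors' p-value served only as a filter: for peaks of the shortest length it followed from strand and height alone.

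Identifiers were named by position in the RefSeq table (GRCh38.p14): at least 80% of CDS and UTR peaks within 1000 nt of a single protein-coding gene, or, without such peaks, all peaks in a single gene. Of 20428 identifiers 14047 were named. Of 20056 protein-coding genes, 3020 without a name but with a peak inside were left out of background shares. With them counted as without a peak, which gives the lowest possible share, 41.6% had a sense peak in both replicates. The share with them counted as having peaks was not computed. All member peaks lay in their gene's interval.

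A peak's main region holds the largest share of its length, with ties to the first listed. Intervals were half-open. Genes named were the 9, each with its highest and highest shared peaks, and the other pathway genes with a pair of at least 10 tags or with no peak. Members, lists and tests were chosen with earlier results of these data known. Alternatives were minimum heights of 5 and 10 tags, a p-value under 0.001, exonic peaks only, shares weighted by length, stricter or looser overlap, assignment by position, and each replicate left out. Overlap and naming were tested on simulated data. Python 3.11.15, numpy 2.4.6, pandas 2.3.3, scipy 1.17.1 and matplotlib 3.10.9 were used.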

Additional observations from a re-analysis of the deposited data

How the results depend on the processing

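A minimum height of 10 tags moved the most values. It left 1 of the 9 genes with a sense peak in both replicates, 4 of the other pathway genes, 6.5 peaks per replicate on average, a mean CDS share of 90.9% and a mean overlapped share of 59.1%, which rest on 2 and 11 peaks. With a minimum of 5 tags, a height that both lists hold, 8 of the 9 genes and 16 of the other pathway genes had a peak in both. The mean CDS share was then 56.9%. With p-values under 0.001, 6 of the 9 genes and 10 of the other pathway genes had a peak in both. The mean CDS share was then 59.6%, with 9 peaks in replicate 1 and 33 in replicate 2, a mean of 21. Weighted by length the CDS share was 51.7%, and it was 78.6% of exonic peaks. With exonic peaks only, 46.4% were overlapped. Requiring an overlapping pair rather than any peak in both replicates left 5 of the 9 genes. The difference in CDS share between replicates, 0.622 percentage points, was 4.06 weighted by length and 8.08 with p-values under 0.001 (exact test, p = 0.711), and reversed to -18.2 at 10 tags (Fisher's exact test, p = 1), to -7.55 at 5 tags (exact test, p = 0.516) and to -1.71 among exonic peaks (exact test, p = 1), so it has no settled direction. Stricter settings count fewer peaks, and any other cause was not tested. Leaving out each replicate gave 59 to 79 peaks, 9 genes in either case, 28 to 35 other pathway genes and CDS shares of 52.5% to 53.2%. Overlap needs both replicates. No paired analysis was possible because the study's inputs were not analysed here and a single group remains.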

Other observations

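Relatives of the 9 enzymes were compared after the values had been seen, per length of the RefSeq gene interval and as a description without a test. IMPDH1, the isoform of IMPDH2 encoded on chromosome 7, had 3 and 6 sense peaks, with at most 9 and 7 tags, of which 2 in each replicate were overlapped, which is 2.54 per 10 kb against 21.7 for IMPDH2. SHMT1, the cytosolic counterpart of SHMT2, had 2 and 4 peaks (0.841 against 15.3 per 10 kb), none of which was overlapped by the other replicate. CTPS2, the relative of CTPS1 on chromosome X, had 1 peak in each replicate, neither overlapped (0.0801 against 2.74 per 10 kb). MTHFD1L, the mitochondrial relative of MTHFD1, had 22 and 29 peaks, of which 6 in each replicate were overlapped, at 1.08 against 1.12 per 10 kb. The part of RNA abundance and of gene length in these values was not tested.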
